A study of Homo sapiens with 4 samples.

Results

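The genes described here carry cells from G2 phase through mitosis. They were 45 genes among 20332 genes in the deposited table, and each was found once. They were named from textbook roles in mitosis, but with earlier results of these data known. Among them are regulators that also act outside mitosis, such as *CCNA2*, *HMGB2* and *TOP2A*. All 45 passed the filter on low counts and were tested. The RNA-seq data compared LNCaP, an androgen-responsive line of human prostate cancer cells (2 libraries, labelled wild type, with no treatment label), with LN-35, a resistant subline of LNCaP (2 libraries, labelled as treated with enzalutamide, an inhibitor of the androgen receptor). The study raised LN-35 by stepwise increases of enzalutamide after adapting LNCaP to serum stripped of steroids, whereas the labels give RPMI-1640 with fetal bovine serum for both lines. Whether LN-35 is a single clone, and whether the drug was present at harvest, is not stated in the labels or the study's methods. The methods state in general that experiments had independent replicates, but in a number that the libraries here do not reach, and the labels name no cultures. The p-values therefore rest on a spread between libraries that may be only technical.

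Mitosis is started by the kinase CDK1 bound to cyclin B, which CDC25 phosphatases switch on. Polo-like and Aurora kinases then build the spindle, kinetochores attach chromosomes to microtubules, and the spindle checkpoint holds back the anaphase-promoting complex until every chromosome is attached. The transcripts of most of these proteins build up together late in the cell cycle, driven by the MuvB complex with the transcription factors B-MYB and FOXM1. MuvB contacts promoters at a short motif, the cell cycle genes homology region (CHR), and the factor NF-Y at CCAAT boxes upstream of it. In a bulk sample, fewer cells in mitosis and less RNA of these genes per cell cannot be told apart. By EdU and CCK-8 assays, the study reported greater proliferation of its resistant sublines than of LNCaP. How that relates to the RNA levels here was not tested.

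RefSeq promoter windows, from 250 bases before to 50 bases after the start of a gene on GRCh38, were at hand for 37 of the 45 genes, and not for *AURKA*, *BIRC5*, *BUB3*, *FOXM1*, *HMGB2*, *TPX2*, *TTK* and *UBE2C*. A CHR (TTTGAA or TTCGAA on either strand) was found in 27 of the 37 windows (73.0%), against 10.9% of 10998 windows of tested genes and 16.6% of all 27305 windows. Within 50 bases of the start the motif stood in 22 of 37 windows (59.5%), against 3.06% of the windows of tested genes. CCAAT on either strand was found in 28 windows (75.7% against 36.9%), and CHR with CCAAT in 22 (59.5% against 4.74%). The windows below show the motif near the start of 11 genes, chosen after their values were seen so as to include genes that fell, genes that did not pass the test and a gene that rose. Each is 30 bases long and reads 5′ to 3′ on the strand of its gene. Capitals mark the CHR, as TTTGAA or TTCGAA, or as TTCAAA where it lies on the opposite strand.
KIF20B (chr10:89701602-89701631, plus strand): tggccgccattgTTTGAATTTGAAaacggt
HMMR (chr5:163460592-163460621, plus strand): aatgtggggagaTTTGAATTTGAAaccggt
NDC80 (chr18:2571542-2571571, plus strand): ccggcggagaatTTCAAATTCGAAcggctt
BUB1 (chr2:110678045-110678074, minus strand): ctgcgcggggtaTTCGAAtcggcggcggct
CENPA (chr2:26786026-26786055, plus strand): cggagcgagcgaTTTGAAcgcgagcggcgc
DLGAP5 (chr14:55191565-55191594, minus strand): cggtgcggcaagTTTGAAtttcgtggaggc
PLK1 (chr16:23678848-23678877, plus strand): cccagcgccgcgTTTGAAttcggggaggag
MKI67 (chr10:128126435-128126464, minus strand): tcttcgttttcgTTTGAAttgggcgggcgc
NUSAP1 (chr15:41332882-41332911, plus strand): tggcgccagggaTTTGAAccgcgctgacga
ANLN (chr7:36389824-36389853, plus strand): tcggcgctgaaaTTCAAATTTGAAcggctg
KIF11 (chr10:92593090-92593119, plus strand): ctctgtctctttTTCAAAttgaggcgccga
*KIF20B*, *HMMR*, *NDC80* and *ANLN* carried 2 matches side by side. The first 3 of these fell in LN-35, and *ANLN* did not pass the test. Of all 27 genes with a CHR in the window 19 were lower, and of all tested genes 35.5% were lower. Whether side-by-side matches bear on the falls was not tested.

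Most mitosis genes were lower in LN-35. A gene was called at an adjusted p under 0.05 (edgeR's two-sided quasi-likelihood test, Benjamini-Hochberg adjusted over 13744 tested genes). Levels are CPM, counts scaled to a common library size with edgeR's TMM factors. Of the 45 genes, 29 were lower (64.4%), 4 were higher (8.89%) and 12 did not pass. The background is high here, since 71.8% of all tested genes were called, 35.5% lower and 36.4% higher. A fall of at least 2-fold was called for 16 of the 45 genes, against 14.2% of the tested genes, and a rise of at least 2-fold for 2, against 18.4%. The median log2 fold change (LN-35 over LNCaP) was -0.72 over the 45 genes and -0.01 over all tested genes. In 34 of the 45 genes both LN-35 libraries lay below both LNCaP libraries, an order seen in 42.8% of all tested genes.

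**Figure D1:**
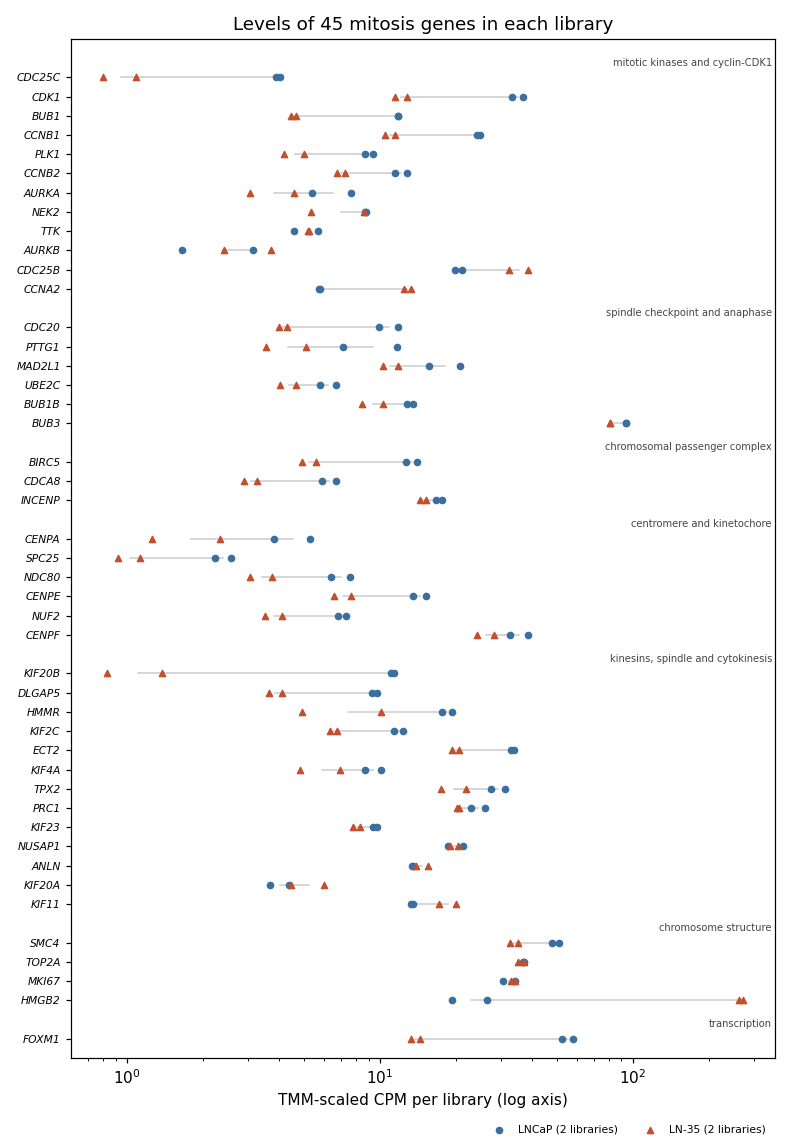
Level of each of the 45 mitosis genes in TMM-scaled CPM (log axis) in the 2 LNCaP libraries (circles) and the 2 LN-35 libraries (triangles), with a grey line between the means, grouped by role. *KIF20B* and *FOXM1* lie far to the left in LN-35, *HMGB2* lies far to the right, and *TOP2A* and *MKI67* lie on top of each other.

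*FOXM1*, the transcription factor gene whose product activates many of the other genes in this group, had the third largest fall. *FOXM1* (ENSG00000111206, chromosome 12, 2857681 to 2877155, minus strand) stood at 58.0 and 52.4 CPM in LNCaP and at 14.3 and 13.2 CPM in LN-35. The lines did not overlap, and the level was 4.01-fold lower in LN-35 (log2 fold change -2.0, SE 0.12, adjusted p = 2.60e-13). Its log2 ratio was -2.02 within repeat 1 and -1.99 within repeat 2. Exons of *FOXM1* overlap *ITFG2* on the opposite strand over 15.9% of their length, and *ITFG2* had 136 to 236 counts per library. Its partner *MYBL2*, encoding B-MYB, moved the same way, from 17.96 and 17.2 CPM to 4.83 and 5.87 CPM (log2 fold change -1.71, SE 0.19). Over the MuvB, B-MYB and DREAM list of 11 genes, 4 were lower (36.4%) and 3 higher (27.3%), against 35.5% and 36.4% of all tested genes. The median was -0.12. In this list *RBBP4*, a histone-binding subunit, fell by 0.47 on the log2 scale, whereas *TFDP1*, a partner of E2F factors, rose by 1.03 and the repressive factor gene *E2F4* by 0.37.

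The CDK1-cyclin B genes fell and the cyclin A2 gene rose. Among 12 genes of mitotic kinases, their cyclins and phosphatases, 7 were lower (58.3%) and 2 higher (16.7%), against 35.5% and 36.4% of all tested genes. *CDK1* (ENSG00000170312, chromosome 10, 60778331 to 60794852, plus strand) had 33.1 and 36.8 CPM in LNCaP and 11.4 and 12.7 CPM in LN-35. This was a 2.89-fold fall (log2 fold change -1.53, SE 0.14, adjusted p = 4.98e-10). *CCNB1*, the cyclin B1 gene, had 24.8 and 24.2 CPM in LNCaP and 11.5 and 10.5 CPM in LN-35, 2.23-fold lower (SE 0.15 on the log2 scale, adjusted p = 2.07e-07). *CCNB2*, the cyclin B2 gene, fell by 0.79 (SE 0.19). In contrast, *CCNA2*, encoding the cyclin that acts from S phase into early mitosis, went from 5.78 and 5.74 CPM to 13.2 and 12.4 CPM. This 2.22-fold rise (log2 fold change 1.15, SE 0.20, adjusted p = 1.47e-05) held under every alternative tried. The ratio of *CCNA2* to *CCNB1* CPM, which is not scaled to length and is read only between lines, was 0.233 and 0.237 in LNCaP and 1.15 and 1.19 in LN-35. *CCNA2* shares 9.08% of its exon length with *EXOSC9* on the opposite strand, and *EXOSC9* had 241 to 267 counts in LNCaP and 364 to 366 in LN-35.

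The CDK1-activating phosphatases moved apart. *CDC25C* had 3.87 and 4.01 CPM in LNCaP and 1.08 and 0.805 CPM in LN-35, a 4.15-fold fall (log2 fold change -2.05, SE 0.42, adjusted p = 0.000140) that rested on 13 and 10 counts in LN-35. Exons of *CDC25C* overlap *FAM53C* on the opposite strand over 8.78% of their length, and *FAM53C* had 813 to 1389 counts per library. *CDC25B* had 19.8 and 21.0 CPM in LNCaP and 38.3 and 32.4 CPM in LN-35, a 1.73-fold rise (log2 fold change 0.79, SE 0.12, adjusted p = 4.72e-06). Both phosphatase genes kept their calls under every alternative tried.

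**Figure D2:**
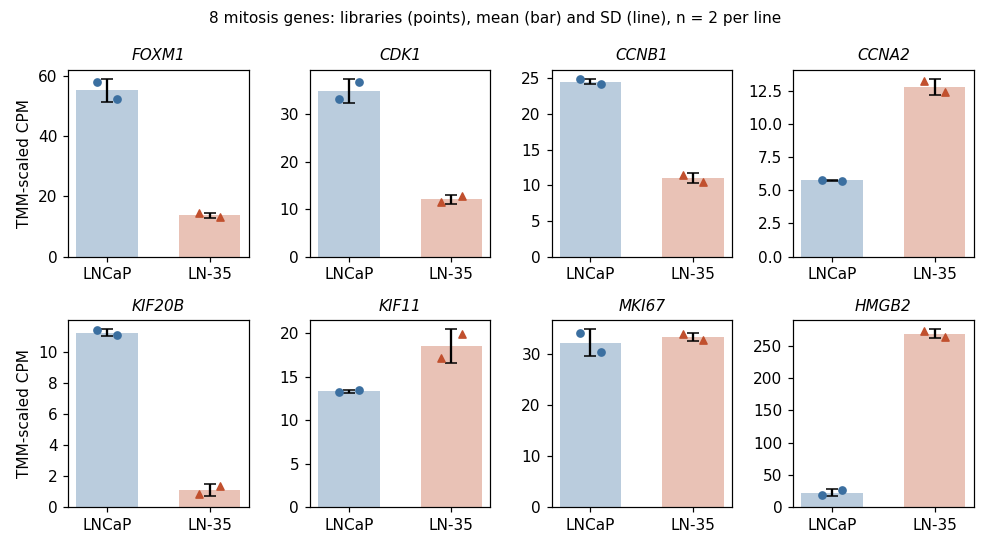
TMM-scaled CPM of 8 mitosis genes (linear axes from 0) in LNCaP and LN-35, with points for libraries, bars for the mean and lines for the SD (n = 2 per line). *FOXM1*, *CDK1*, *CCNB1* and *KIF20B* fell, *CCNA2*, *KIF11* and *HMGB2* rose, and *MKI67* overlapped between the lines.

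Among the mitotic kinases, *PLK1*, encoding the Polo-like kinase of spindle assembly and mitotic exit, had 9.33 and 8.67 CPM in LNCaP and 5.00 and 4.18 CPM in LN-35 (log2 fold change -0.97, SE 0.23, adjusted p = 0.000589). *BUB1*, a kinase gene of the spindle checkpoint, had 11.8 CPM in each LNCaP library and 4.66 and 4.43 CPM in LN-35 (log2 fold change -1.37, SE 0.21). Neither gene overlapped between the lines. Exons of *PLK1* share 11.6% of their length with *AC008870.3* on the opposite strand, which is not among the deposited genes. The Aurora kinase genes gave a less clear picture. *AURKA*, whose product acts at centrosomes, fell by 0.78 (SE 0.28, adjusted p = 0.0176), but this call was lost with DESeq2 (0.124), without LNCaP replicate 1 (0.221) and without LN-35 replicate 2 (0.180). *AURKB*, the kinase gene of the chromosomal passenger complex, had 1.65 and 3.15 CPM in LNCaP and 2.42 and 3.70 CPM in LN-35, with overlapping lines (log2 fold change 0.36, 95% interval -0.47 to 1.19). *TTK*, the checkpoint kinase gene also known as MPS1, had an interval of -0.52 to 0.57 and did not pass. *NEK2*, encoding a kinase of centrosome separation, did not pass (adjusted p = 0.196) but was called lower without LN-35 replicate 1 (0.0299), the library in which it stood at 8.66 CPM against 5.31 CPM in the other.

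Of 6 genes of the spindle checkpoint and of anaphase onset, 5 were called lower and none higher, against 35.5% and 36.4% of all tested genes. *CDC20*, which encodes the activator of the anaphase-promoting complex, had 9.90 and 11.8 CPM in LNCaP and 3.998 and 4.27 CPM in LN-35 (log2 fold change -1.39, SE 0.22, adjusted p = 7.21e-06). *PTTG1*, the securin gene, whose product holds back separase, had 7.11 and 11.7 CPM in LNCaP and 5.08 and 3.54 CPM in LN-35 (log2 fold change -1.12, SE 0.27). The LNCaP libraries of *PTTG1* lay far apart, and its log2 ratio was -0.48 within repeat 1 and -1.72 within repeat 2. *MAD2L1*, a checkpoint gene whose product binds CDC20, fell by 0.72 (SE 0.17). *BUB1B* and *BUB3*, also checkpoint genes, fell by 0.48 and 0.21, and these small falls did not hold with DESeq2 (adjusted p = 0.149 and 0.118). *BUB1B* was also lost without LNCaP replicate 2 (0.0668) or LN-35 replicate 1 (0.198), and *BUB3* without LN-35 replicate 1 (0.120) or replicate 2 (0.110). Exons of *BUB1B* share 10.2% of their length with *BUB1B-PAK6* on the same strand, which had 0 counts in every library. *UBE2C*, encoding a ubiquitin-conjugating enzyme of the anaphase-promoting complex, had a log2 fold change of -0.52 (95% interval -1.05 to 0.02) and did not pass, although it was called lower with library totals alone (adjusted p = 0.0461). Of the 19 subunits and regulators of that complex, 7 were lower (36.8%) and 2 higher (10.5%), against 35.5% and 36.4% of all tested genes. Their median was -0.17. Here the subunit genes *ANAPC13* and *ANAPC11* fell by 0.89 and 0.79, and *ANAPC16* and *ANAPC10* rose by 0.74 and 1.00.

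In the chromosomal passenger complex, which corrects faulty attachments, the targeting subunits fell while the scaffold and the kinase did not pass the test. *BIRC5*, the survivin gene, had 12.6 and 14.1 CPM in LNCaP and 4.91 and 5.55 CPM in LN-35 (log2 fold change -1.35, SE 0.20, adjusted p = 2.32e-06). *CDCA8*, the borealin gene, had 5.90 and 6.67 CPM in LNCaP and 3.25 and 2.90 CPM in LN-35 (log2 fold change -1.03, SE 0.28). Neither overlapped between the lines. *INCENP*, the scaffold gene, had a log2 fold change of -0.20 (95% interval -0.51 to 0.10), and *AURKB* is given above.

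All 6 centromere and kinetochore genes among the 45 were called lower, against 35.5% of all tested genes. *CENPE*, a kinesin gene of the kinetochore, had 15.2 and 13.5 CPM in LNCaP and 6.58 and 7.65 CPM in LN-35 (log2 fold change -1.01, SE 0.19, adjusted p = 3.74e-05). The Ndc80 complex grips microtubule ends, and its genes among the 45 fell by similar amounts. *NDC80* had 6.41 and 7.60 CPM in LNCaP and 3.75 and 3.06 CPM in LN-35 (log2 fold change -1.04, SE 0.27), and *NUF2* fell by 0.89 (SE 0.26). *SPC25*, the third of these genes, had only 2.22 and 2.58 CPM in LNCaP and 0.916 and 1.13 CPM in LN-35 (log2 fold change -1.22, SE 0.47, adjusted p = 0.0235). When the repeat number was added as a replicate block, *SPC25* missed the threshold (adjusted p = 0.0654), as it did with DESeq2 (0.137) and without any 1 of the 4 libraries (0.0661 to 0.159). *CENPA*, the gene of the histone H3 variant that marks centromeres, had 5.27 and 3.80 CPM in LNCaP and 1.25 and 2.33 CPM in LN-35 (log2 fold change -1.34, SE 0.37). Its call was lost without LNCaP replicate 1 (adjusted p = 0.0585) or LN-35 replicate 1 (0.0553). *CENPA* also shares 6.96% of its exon length with *SLC35F6* on the same strand, which had 1628 to 1950 counts in LNCaP and 922 to 992 in LN-35. *CENPF*, a large kinetochore protein gene, fell by 0.44 (SE 0.12). Outside the 45 genes, a list of 33 other kinetochore and centromere genes had a median of -0.33. In it 14 were lower (42.4%) and 5 higher (15.2%), against 35.5% and 36.4% of all tested genes. *MIS12* and *CENPS* fell by 1.14 and 1.15 in this list. *CENPN*, which encodes a reader of CENPA nucleosomes, rose from 36.5 and 32.5 CPM to 221 and 209 CPM, and *CENPC*, a scaffold gene of the inner kinetochore, rose by 1.23.

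**Figure D3:**
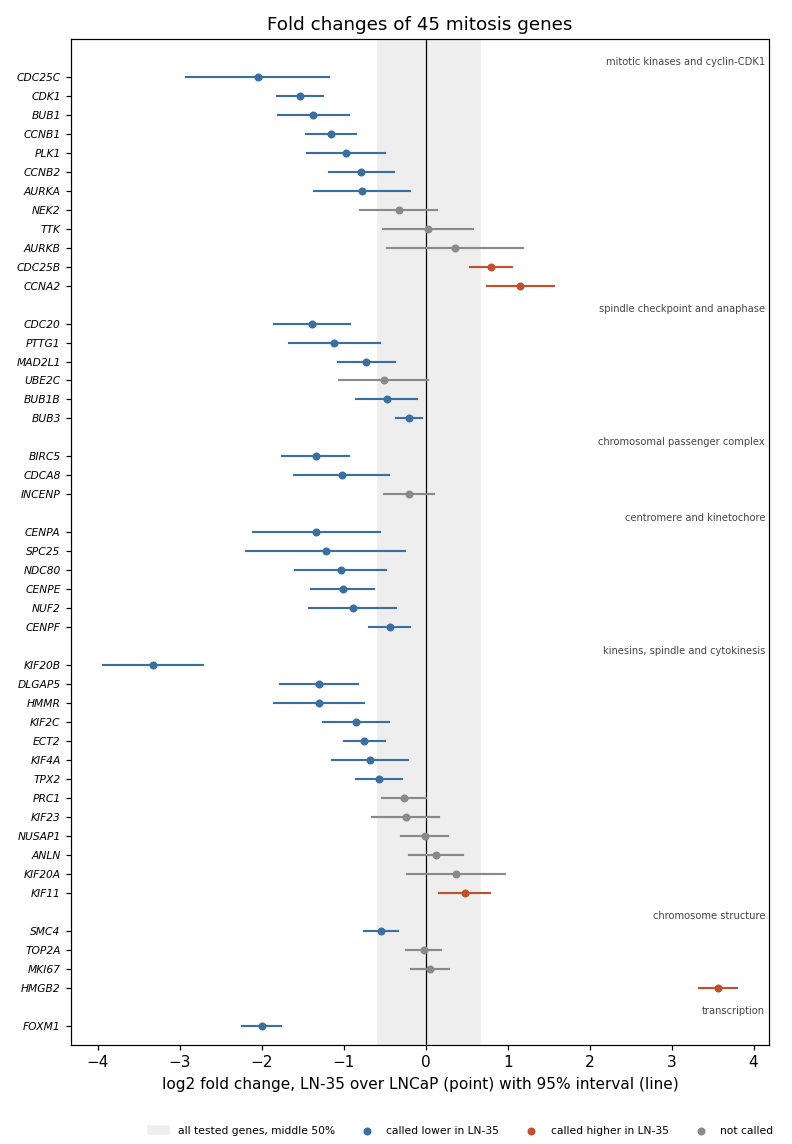
Log2 fold change of the 45 mitosis genes (LN-35 over LNCaP, points) with 95% intervals (lines) by role, coloured by call, and a grey band for the middle 50% of all tested genes (-0.58 to 0.66). All 6 centromere and kinetochore genes lie left of 0, *KIF20B* lies farthest left at -3.33, and *HMGB2* farthest right at 3.57.

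Among the genes of motors, spindle and cytokinesis, 7 of 13 were lower (53.8%), 1 was higher (7.69%) and 5 did not pass. Of all tested genes, 35.5% were lower and 36.4% higher. *KIF20B*, a kinesin gene with a role in cytokinesis, showed the largest fall of the 45 genes. *KIF20B* (ENSG00000138182, chromosome 10, 89701610 to 89774939, plus strand) had 11.4 and 11.04 CPM in LNCaP and 0.833 and 1.37 CPM in LN-35, which were 179 and 154 counts against 10 and 17. The level was 10.1-fold lower (log2 fold change -3.33, SE 0.29, adjusted p = 5.01e-10). *KIF11*, encoding the motor that separates spindle poles, went the other way, from 13.2 and 13.5 CPM to 17.2 and 19.9 CPM (log2 fold change 0.47, SE 0.15, adjusted p = 0.00784). This rise was lost with DESeq2 (0.0696) and without LN-35 replicate 2 (0.112). Between the lines the ratio of *KIF11* to *KIF20B* CPM went from 1.16 and 1.22 to 20.6 and 14.5. *KIF20A*, of the same kinesin-6 family as *KIF20B*, had a log2 fold change of 0.37 (95% interval -0.23 to 0.97) and did not pass.

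*DLGAP5*, encoding a stabilizer of kinetochore microtubules, had 9.71 and 9.32 CPM in LNCaP and 4.08 and 3.62 CPM in LN-35 (log2 fold change -1.30, SE 0.23). *HMMR*, encoding a microtubule-binding protein of the spindle, had 17.6 and 19.3 CPM in LNCaP and 10.1 and 4.91 CPM in LN-35 (log2 fold change -1.30, SE 0.25, adjusted p = 0.000521). The lines did not overlap for either gene, although the LN-35 libraries of *HMMR* lay far apart, with log2 ratios of -0.81 within repeat 1 and -1.97 within repeat 2. Smaller falls were called for *KIF2C* (-0.85), which encodes a microtubule depolymerase, *ECT2* (-0.75), an activator of RhoA in cytokinesis, *KIF4A* (-0.68), a chromosome-bound kinesin gene, and *TPX2* (-0.58), the activator of Aurora A. Of these, *KIF4A* was lost with DESeq2 (adjusted p = 0.0946), without LNCaP replicate 2 (0.0632) and without LN-35 replicate 2 (0.163). The cytokinesis genes *ANLN* (95% interval -0.20 to 0.46) and *KIF23* (-0.65 to 0.16) and the spindle gene *NUSAP1* (-0.30 to 0.27) did not pass. Exons of *NUSAP1* share 62.2% of their length with the gene model *AC087721.2* on the same strand, which had under 4 counts in every library, and how reads were divided between them is uncertain. *PRC1*, which bundles the microtubules of the central spindle, had a log2 fold change of -0.27 (adjusted p = 0.0717) and was called lower with library totals alone (0.0229) and without LNCaP replicate 2 (0.0343). Of its exon length, 57.6% is shared with a readthrough gene model on the same strand, *AC068831.7*, so its count is uncertain. Among 38 other spindle, centrosome and cytokinesis genes, 14 were lower (36.8%) and 6 higher (15.8%), against 35.5% and 36.4% of all tested genes. Their median was -0.16. *TACC3* and *HAUS6* fell by 1.31 and 1.06 in that list, and *NUMA1* and *HAUS4* rose by 0.67 and 0.72.

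The genes of chromosome structure held the largest rise of the 45 genes beside 2 genes whose lines overlapped. *HMGB2*, encoding an HMG-box protein that binds and bends DNA, had 19.2 and 26.4 CPM in LNCaP and 273 and 263 CPM in LN-35. *HMGB2* (ENSG00000164104, chromosome 4, 173331695 to 173335125, minus strand) thereby rose 11.8-fold (log2 fold change 3.57, SE 0.11, adjusted p = 3.58e-14). It took 2.38% and 3.25% of the summed CPM of the 45 genes in LNCaP and 32.6% and 32.5% in LN-35. The sum with *HMGB2* was 805 and 813 CPM in LNCaP and 838 and 811 CPM in LN-35, overlapping between the lines, whereas without it the sum was 785 and 786 CPM in LNCaP and 564 and 548 CPM in LN-35. The median of the 44 other genes was -0.74. *HMGB1*, the paralog of *HMGB2*, fell by 0.30 (SE 0.07). Of 9 HMG chromatin protein genes other than *HMGB2*, 5 were higher (55.6%) and 2 lower (22.2%), against 36.4% and 35.5% of all tested genes. Their median was 0.33. *HMGN4* and *HMGN5*, encoding nucleosome-binding proteins, rose by 0.89 and 1.15, and *HMGN1* fell by 0.29. Larger rises stood in the same list, in genes picked here after their values were seen. *HMGN2* went from 52.0 and 78.6 CPM to 212 and 207 CPM, and *HMGA2*, at 0 counts in both LNCaP libraries, had 22 and 27 counts in LN-35.

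*MKI67*, the gene of the proliferation marker Ki-67, had 34.1 and 30.5 CPM in LNCaP and 34.0 and 32.9 CPM in LN-35. *TOP2A*, encoding the DNA topoisomerase that untangles sister chromatids, had 37.2 and 36.6 CPM in LNCaP and 35.2 and 37.2 CPM in LN-35. Both overlapped between the lines, with 95% intervals of the log2 fold change of -0.18 to 0.28 for *MKI67* and -0.24 to 0.19 for *TOP2A*. A change as large as that of *CDK1* lies outside both intervals. Between the lines the ratio of *MKI67* to *CDK1* CPM went from 1.03 and 0.829 to 2.98 and 2.59. *SMC4*, a core condensin gene, fell by 0.55 (SE 0.10, adjusted p = 4.02e-05). Of its exon length, 18.5% is shared with *TRIM59* on the opposite strand, which had 190 to 193 counts in LNCaP and 274 to 339 in LN-35. The share with *IFT80*, also on the opposite strand, is 7.18%, and *IFT80* had 951 to 1064 counts per library. The other condensin and cohesin genes moved both ways, with 8 of 22 lower (36.4%) and 9 higher (40.9%), against 35.5% and 36.4% of all tested genes. Among them *PDS5B*, a cohesin regulator gene, fell by 1.89 and *SGO2*, a protector of centromeric cohesin, by 1.93, while *STAG1* and the cohesin loader gene *NIPBL* rose by 1.12 and 0.80.

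Read per kilobase of exon, the order of levels changed between the lines. In LNCaP *BUB3* (11.3 CPM per kilobase) and *FOXM1* (11.3) stood highest, followed by *CCNB1* (9.59), *CDK1* (8.89) and *HMGB2* (8.21). In LN-35 *HMGB2* stood highest at 96.7 CPM per kilobase, followed by *BUB3* (9.78) and *CDC25B* (8.19), while *FOXM1* stood at 2.81. The lowest in LN-35 were *KIF20B* (0.161) and *CDC25C* (0.283).

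Lists related to the 45 genes had medians nearer 0. Genes of mitotic entry control and the G2 checkpoint had 8 of 21 lower (38.1%) and 5 higher (23.8%), against 35.5% and 36.4% of all tested genes. Their median was -0.13. *CDKN1A*, the gene of the CDK inhibitor p21, fell by 0.62 and *PPP2R2D*, a regulatory subunit of the phosphatase PP2A, by 0.91. *SFN*, encoding 14-3-3 sigma, which keeps CDK1-cyclin B in the cytoplasm after DNA damage, went from 2.67 and 5.09 CPM to 52.2 and 47.2 CPM, and *ENSA*, an inhibitor of PP2A, rose by 0.29. DNA replication genes, which act earlier in the cycle, had 10 of 43 lower and 10 higher (23.3% each) and a median of -0.13. In that list *CDC6*, a gene of origin licensing, fell by 1.85, and *POLD3* and *MCM7* rose by 0.92 and 0.47. These medians are descriptions, and the difference between the lists was not tested.

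**Figure D4:**
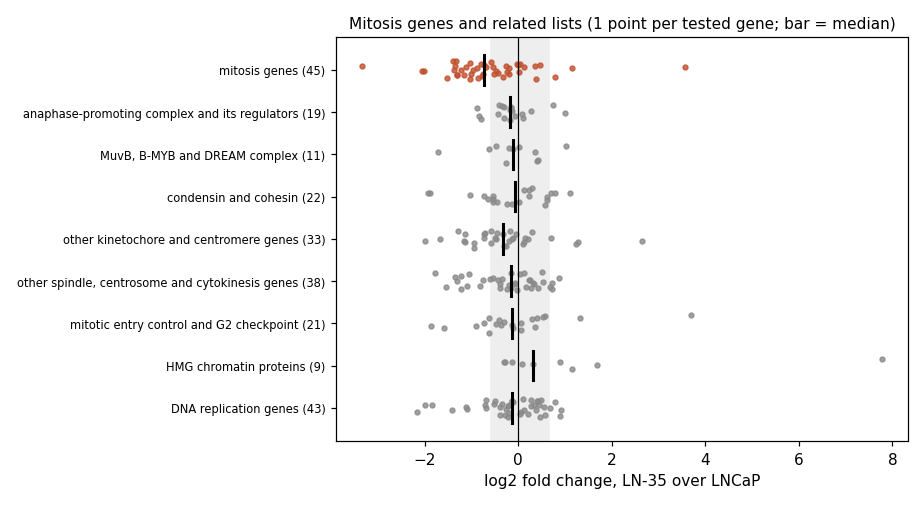
Log2 fold change (LN-35 over LNCaP) of each tested gene in the mitosis group and in 8 related lists, with a black bar for the median, a grey band for the middle 50% of all tested genes and a line at their median (-0.01). The median of the mitosis genes, -0.72, lies to the left of the band, and those of the related lists lie between -0.33 and 0.33.

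Falls were seen in genes with and without a match to the promoter motif shown above. Among the 27 genes with a CHR in the window, 19 were lower and 1 higher, with a median of -0.75. Among the 10 genes without a match, 5 were lower and 2 higher, with a median of -0.59. Of all tested genes, 35.5% were lower and 36.4% higher. Within these 10, the 6 with CCAAT alone had a median of 0.01 (2 lower, 1 higher). The 4 with neither motif had a median of -0.93 (3 lower, 1 higher). Only the exact strings TTTGAA and TTCGAA were searched, in the window used for each gene. A gene without a match may therefore still carry a variant of the element or a copy elsewhere. Whether the motif bears on the falls was not tested. The 22 genes with a CHR within 50 bases of the start had a median of -0.77, and the other 15 a median of -0.55. Both the largest fall with a window (*KIF20B*) and genes that did not pass (*MKI67*, *NUSAP1*, *ANLN*) had a CHR near the start. Over all tested genes with a window, those with a CHR had a median of 0.01, with 409 of 1199 lower and 432 higher.

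**Figure D5:**
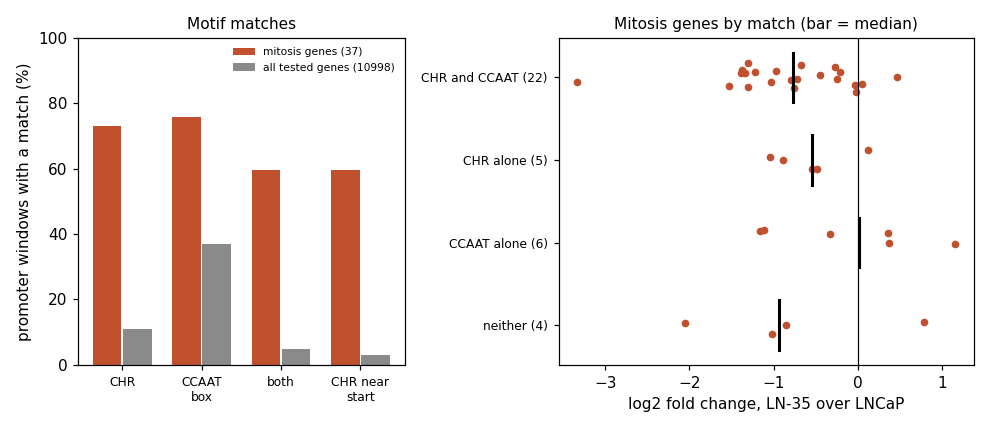
Left, share of promoter windows with a CHR, a CCAAT box, both, or a CHR within 50 bases of the start, for 37 mitosis genes and 10998 tested genes. Right, log2 fold change (LN-35 over LNCaP) of the 37 genes by match, with a black bar for the median. The median is -0.77 for the 22 genes with both and -0.55 for the 5 with a CHR alone. It is 0.01 for the 6 with CCAAT alone and -0.93 for the 4 with neither.

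Libraries held 12225173 to 15333722 counts, and the lines differed widely elsewhere. The counts of markers below stand beside 35.5% of all tested genes called lower and 36.4% called higher. Of 8 luminal prostate markers, 6 were lower and 1 (*KRT8*, by 0.97) was higher, with a median log2 fold change of -1.28 and summed levels of 3531 to 3533 CPM in LNCaP and 2646 to 2675 CPM in LN-35. The largest falls were those of *KLK3* (-6.36) and *TMPRSS2* (-5.23), and *FOLH1* (-0.12) did not pass. In the neuroendocrine list, 5 of 6 markers were tested and 5 rose, and *INSM1* was at 0 throughout, with summed levels of 55.7 to 60.4 CPM in LNCaP and 306 to 323 CPM in LN-35. Of 7 fibroblast markers 4 were tested and 3 were higher (summed 37.1 to 45.5 CPM in LNCaP, 44.9 to 47.3 CPM in LN-35), with *COL1A2* at 0 to 2 counts and *DCN* at 0 in LNCaP and 78 to 119 counts in LN-35. Of the leukocyte and endothelial markers, *CD3E*, *CDH5* and *KDR* were at 0 in every library. Summed levels were 9.75 to 13.1 CPM for leukocyte markers over both lines, and 5.65 to 6.67 CPM in LNCaP against 0.333 to 0.805 CPM in LN-35 for endothelial markers, where *VWF* fell. Mitochondrially encoded genes took 9.39% to 9.53% of counts in LNCaP and 13.8% to 14.8% in LN-35, and without them the same number of mitosis genes was called lower (29) and higher (4). The part of the marker differences in the values above was not tested.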

How the data were processed

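RNA from 2 libraries per line, isolated by TRIzol, was prepared with a NEBNext Ultra RNA kit. Neither the labels nor the methods mention poly(A) selection. The authors deposited 1 table of estimated counts per gene, unscaled between libraries. HISAT2 2.0.5 and featureCounts 1.5.0-p3, with the build hg38, are named in the submitters' processing notes. Of the values in a library, 11.5% to 12.0% were not whole, and 6 of the 45 mitosis genes had such values, so reads shared between genes may have been divided. No strand setting is given, so overlapping genes on opposite strands cannot be told apart.

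Counts were rounded, filtered with filterByExpr (minimum count 10), scaled by TMM and tested with edgeR 4.0.16 (glmQLFit robust, design ~ group) in R 4.3.3. An adjusted p under 0.05 was a call. Levels are TMM-scaled CPM. Intervals are 95% intervals from the same fit. Symbols were found for 20304 identifiers, and coordinates are from GENCODE 29 (GRCh38). The alternatives were DESeq2 1.42.0, its size factors, library totals alone, no filter on low counts, rounding down, a test against a 1.5-fold change, the repeat number as a block, leaving out each library, and leaving out mitochondrially encoded genes. The edgeR script was tested on simulated data. Replicates of a line differed by more than sampling noise (chi-square per degree of freedom 6.36 and 3.26). The labels' batch tag numbers each library as repeat 1 or 2, which may pair them. Their deviations from the group means correlated at -0.028 between the lines.

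The 45 genes and all lists were chosen with earlier results of these data known. Library values are given for genes called with at least a 2-fold change, for genes called against the majority, and for *FOXM1*, *MKI67*, *CDK1*, *CCNB1*, *PLK1* and *AURKB*. In related lists, up to 2 called genes per direction with the smallest adjusted p and at least 1 CPM are named, and 1 gene under this rule is not reported here.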

Additional observations from a re-analysis of the deposited data

How the results depend on the processing

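Of the 29 falls, 23 held under every alternative that tested against no change, as did 3 of the 4 rises. Against a 1.5-fold change, 16 mitosis genes were lower and 3 higher (2445 and 2904 of all 13744 tested genes). Leaving out 1 library gave 25 to 27 falls and 3 to 4 rises (4413 to 4692 and 4523 to 4867 of all genes), and DESeq2 gave 24 and 3. With the replicate block there were 28 falls and 4 rises (4755 and 4862 of all 13744 tested genes). *SPC25* was the only call of the 45 genes that the block changed. Over all genes, DESeq2 called 4107 lower and 4484 higher of the 15727 it tested. A few genes without a call changed sign. With library totals alone *TTK* was at -0.051 and *MKI67* at -0.029, and with DESeq2 size factors *NUSAP1* was at 0.00227. Leaving out 1 library gave -0.048 to 0.88 for *AURKB*, -0.13 to 0.18 for *TTK*, -0.12 to 0.082 for *NUSAP1*, -0.066 to 0.021 for *TOP2A* and -0.034 to 0.13 for *MKI67*. The cause was not tested. The alternative without mitochondrially encoded genes was chosen after seeing the data. Depth limits the genes of few counts most, and the largest SEs among the 45 genes were those of *SPC25*, *CDC25C*, *AURKB* and *CENPA*.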
